A study of Drosophila melanogaster with 18 samples.

Results

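The genes for mitochondrial ribosomal proteins were examined in the heads of flies kept in the cold (18°C), at 25°C or in the warmth (29°C). They were taken as every row of the 3′ RNA-seq table whose gene symbol starts with *mRpL* or *mRpS*, with identical rows of a gene counted once. This gave 72 genes (46 *mRpL* and 26 *mRpS*) among 15334 genes in the table. A row stands for a transcript 3′ end. After rows of a gene that differed by under 10% had been merged, the 72 genes held 73 rows of the 8846 that were tested. All 73 passed the filter, which asked 6 or more libraries to hold a value of 10 or more. The flies were wild-type Canton-S *Drosophila melanogaster*, described in the labels as grown at the 3 temperatures and in the study's methods as entrained there for at least 3 days in light-dark cycles. Each temperature was represented by 6 libraries of polyadenylated head RNA, 1 for each of ZT3, ZT7, ZT11, ZT15, ZT19 and ZT23 (hours after lights on), 18 in all. Age and sex are not given in the sources used here.

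Mitochondria carry their own ribosomes, which translate the few messages encoded by mitochondrial DNA, all of them for subunits of the oxidative phosphorylation complexes. The ribosomal RNAs of these particles come from the mitochondrial genome, but every protein is encoded in the nucleus, made in the cytosol and imported. The *mRpL* genes mostly encode proteins of the large subunit, which forms peptide bonds, and the *mRpS* genes mostly proteins of the small subunit, which reads the message. Many of them descend from bacterial ribosomal proteins, and others were added in the mitochondrial lineage. By the human naming of the subunits, *mRpS18A* and *mRpS30* belong to the large subunit, so 48 genes were grouped as large and 24 as small. Of the 72 genes, 44 were grouped as having a bacterial counterpart and 28 as having none. In flies, loss of a mitochondrial ribosomal protein impairs growth and behaviour, as in the bang-sensitive mutant of *tko*, a small-subunit gene with another symbol.

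Depth was estimated as 1.24 to 6.62 M reads per library, with the smallest library at 25°C and ZT15. Neuron, photoreceptor, glia, fat body and muscle markers were present in every library. The summed ovary markers reached at most 6.86 units of signal. The summed testis and accessory gland markers reached 31.8 and the summed midgut markers 138.3, both at 29°C, where their medians over the libraries were 0 and 1.22. The tissue markers moved with temperature. The summed signal of 5 head fat body markers (the yolk protein genes *Yp1* to *Yp3*, *Lsp2* and *fit*) ranged from 313897 to 761208 at 18°C, from 148654 to 281479 at 25°C and from 102704 to 206144 at 29°C, and none was at 0. All 4 muscle markers were also called lower at 29°C than at 18°C (median log2 change -0.76), with sums of 18999 to 24876 at 18°C, 13752 to 16758 at 25°C and 11040 to 13589 at 29°C. The summed signal of 5 photoreceptor markers ran the other way, from 39997 to 51173 at 18°C, from 63656 to 72829 at 25°C and from 81408 to 106371 at 29°C. Of their 7 rows 5 were called higher at 29°C than at 18°C, and the other two, both of *ninaC*, had log2 changes of -0.19 and -0.22 and were not called. Of 4 glia markers 2 were called lower and the other 2 were higher at 29°C without a call, and no neuron marker row was called. The part of these shifts in the results below was not tested. In whole heads, fewer cells of a type and less RNA per cell cannot be told apart. As sex is not given, a different mix of sexes between libraries cannot be told apart from these either.

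The mitochondrial ribosomal protein messages formed a narrow band of moderate abundance. Signal is the unit of the deposited values, that is, reads divided by a constant for each library. The mean signal of a row over the 18 libraries had a median of 135.9 (quartiles 99.5 and 182.9), against a median of 53.6 for all tested rows. In 69 of the 73 rows the mean lay between 50 and 350, where 41.4% of all tested rows lay. A read comes from a transcript end, so values were compared between genes without dividing by length. *mRpL42* was highest, with 319.9 to 467.1 at 18°C, 302.1 to 343.3 at 25°C and 317.6 to 385.2 at 29°C (medians 377.8, 322.6 and 362.8). *mRpS9*, whose bacterial relative contacts the tRNA, came next with a mean of 339.8. *mRpL3*, a core protein of the large subunit, had the lowest gene mean, with medians of 40.0 at 18°C, 26.8 at 25°C and 28.12 at 29°C. The libraries behind these values held 14 to 799 reads for a row, apart from the minor 3′ end of *mRpS5*, which fell to 1 read.

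Most of these proteins are present in equal number in a ribosome, with several copies of the stalk protein mRpL12. Their messages were not level, even among proteins that work side by side. *mRpL12*, which forms the flexible stalk that recruits translation factors, averaged 252.5 ± 49.4 at 18°C, 267.6 ± 41.2 at 25°C and 291.5 ± 29.12 at 29°C (SD, n = 6 each). *mRpL10* and *mRpL11*, which form the base of that stalk, averaged 125.0 and 72.2 over all 18 libraries. *mRpL1*, of the opposite stalk, averaged 101.4. The core proteins *mRpL2* and *mRpL4* averaged 206.6 and 147.9, *mRpL27*, which lies at the peptidyl transferase centre, 187.3, and *mRpL45*, at the exit of the peptide tunnel, 148.9. Among small-subunit proteins, *mRpS7*, which organises the head of the subunit, averaged 257.0 and the GTP-binding *mRpS29* 175.4. The median of the row means was 129.9 for the large and 138.9 for the small subunit.

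To ask how temperature changed these messages irrespective of the time of day, the 6 libraries of each temperature were compared with limma on log2(signal + 1), and a row was called at an adjusted p under 0.05 over all 8846 rows. The 6 time points served as replicates. The extremes gave the most calls. Between 29°C and 18°C, 12 of 73 rows were called (16.4%), of which 6 were higher at 29°C and 6 lower. Of all tested rows 23.1% were called, 10.5% higher and 12.6% lower. No mitochondrial ribosomal protein row changed by over 2-fold (range of log2 changes -0.79 to 0.75), where 10.3% of all rows did. The median log2 change was -0.06, against 0.05 over all rows, and 33 of 73 rows were higher at 29°C. The 95% interval of the change lay within 2-fold either way in 68 of 73 rows, against 56.2% of all rows, which include many of lower signal.

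*mRpL28* (2L, dm3 4973976 to 4975316), which descends from a bacterial large-subunit protein, moved the furthest beyond its spread. Its signal was 209.7 to 302.6 at 29°C (median 243.9) and 338.4 to 440.3 at 18°C (median 404.0). These groups did not overlap, and the libraries at 25°C, from 272.7 to 340.9, reached into both. It fell at 29°C relative to 18°C by 0.68 ± 0.11 on the log2 scale (SE, limma, adjusted p = 1.9e-05), in the same direction at all 6 time points and in each of 17 alternative settings. *mRpS30* (X, 15680080 to 15682072), named for the small but placed in the large subunit, had the largest change by size. Its signal was 43.1 to 91.2 at 29°C and 68.3 to 137.5 at 18°C, with medians of 57.8 and 112.7 and overlapping groups (limma log2 change -0.79 ± 0.22 SE, adjusted p = 0.00882).

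*mRpL54* (2R, 16948294 to 16949092), a large-subunit protein without a bacterial counterpart, was lower at 29°C at every time point. It had 84.8 to 130.7 at 29°C and 123.8 to 218.6 at 18°C (limma log2 change -0.46 ± 0.16 SE, adjusted p = 0.0365). The other rows called lower were *mRpS14*, *mRpL10* and *mRpL22*, with log2 changes of -0.50, -0.63 and -0.41. *mRpL10* varied widely at 18°C, from 104.5 to 232.2, and only 4 of 6 time points showed its direction.

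In the other direction, *mRpL4* (2L, 16328059 to 16329132), whose bacterial relative lines the peptide exit tunnel, had 139.2 to 204.5 at 29°C and 101.7 to 125.8 at 18°C, without overlap (limma log2 change 0.49 ± 0.15 SE, adjusted p = 0.0149). *mRpL33* (X, 4215797 to 4216264), a small protein of the large subunit, had 229.5 to 270.0 at 29°C and 146.0 to 231.0 at 18°C. Those groups overlapped by 1 library each, and the change was 0.46 ± 0.13 (log2, SE, limma, adjusted p = 0.00992). *mRpS29*, related to the mammalian cell death protein DAP3, had medians of 225.9 at 29°C and 150.9 at 18°C, with wide groups from 133.9 to 270.7 and from 106.8 to 199.3 (limma log2 change 0.48 ± 0.16 SE, adjusted p = 0.0352). *mRpL49*, *mRpS21* and *mRpS28* were also called higher, by 0.38, 0.51 and 0.47 on the log2 scale. *mRpL27* showed groups that did not overlap, with 191.4 to 233.4 at 29°C and 143.2 to 188.3 at 18°C, but it missed the threshold (limma log2 change 0.35 ± 0.13 SE, adjusted p = 0.0559). Among the other proteins of known role, none of which was called, log2 changes between these temperatures were 0.22 for *mRpL12*, -0.09 for *mRpL11*, 0.33 for *mRpL1*, 0.23 for *mRpL2*, -0.58 for *mRpL3*, -0.39 for *mRpL45* and -0.06 for *mRpS7*.

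**Figure D1:**
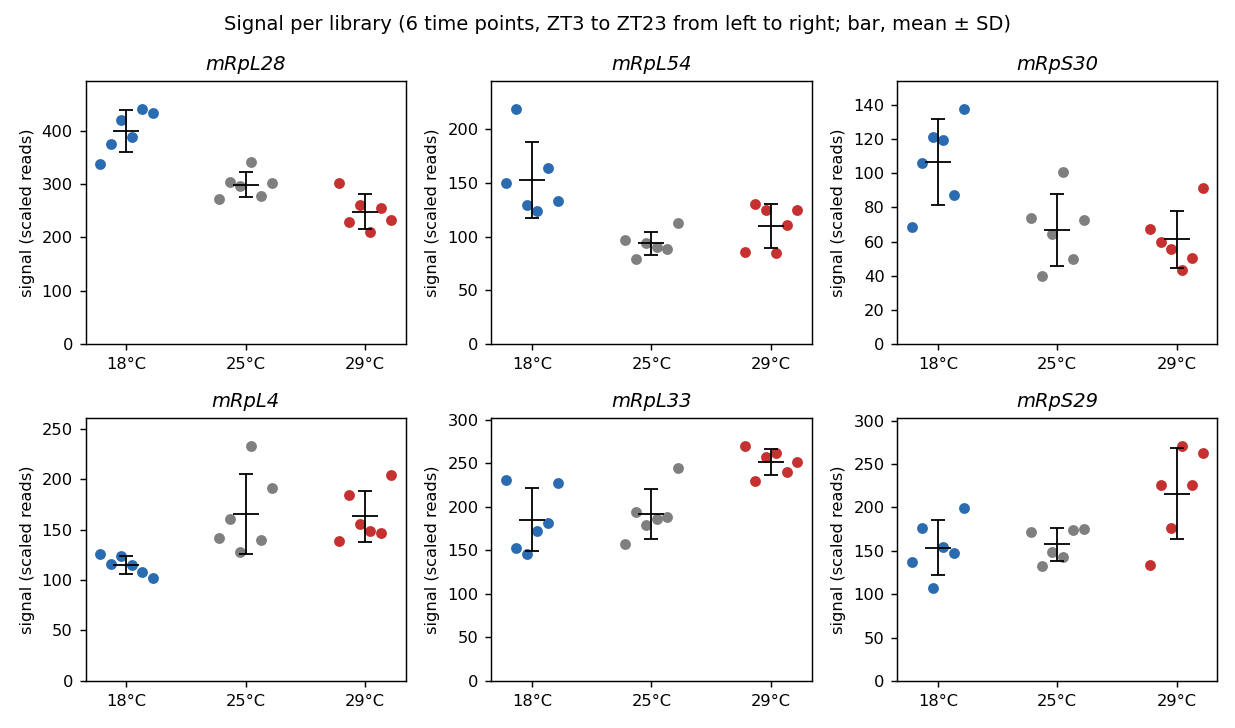
Signal (scaled reads, vertical axes from 0) of 6 called genes in each library, by temperature. Points are libraries in order of time point, and bars give the mean ± SD of 6 libraries. *mRpL28* had 209.7 to 302.6 at 29°C and 338.4 to 440.3 at 18°C, while all libraries of *mRpL4* at 18°C stayed at or under 125.8.

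The balance of these calls depended on the scaling. When every library was scaled to the same total instead, 19 rows were called between 29°C and 18°C, with 17 of them higher and 2 lower. Of all 8846 tested rows, 1651 were then called higher and 739 lower. The median of the 73 rows became 0.13 and that of all rows 0.24, so the mitochondrial ribosomal protein rows again lay below the whole. With totals that left out the yolk protein genes, 10 rows were called higher and 4 lower, against 1005 and 1041 of all rows. With each library scaled by the median ratio of its rows to their geometric means, 6 of the 73 were called higher and 6 lower. Of all rows, 914 were called higher and 1132 lower with these ratios. *mRpL28* and *mRpS30* were called under each of the 17 alternative settings. The remaining 10 calls each ended when 1 time point, with its 3 libraries, was left out. For *mRpL33* it was ZT11 and for *mRpS14* ZT19, with adjusted limma p of 0.0600 and 0.0877. For *mRpL4* and *mRpS28* it was either of ZT7 and ZT23, with adjusted p of up to 0.0927 and 0.162. For *mRpL10* and *mRpS21* any of ZT7, ZT15 and ZT19 ended the call, and for *mRpL49* any of ZT3, ZT15 and ZT19 (adjusted p of up to 0.0965, 0.112 and 0.0697). For *mRpL54* these were ZT3, ZT7, ZT15 and ZT19, for *mRpL22* ZT3, ZT11, ZT19 and ZT23, and for *mRpS29* every time point but ZT3, with adjusted p of up to 0.126, 0.134 and 0.115.

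Cold against 25°C gave 6 called rows of 73 (8.22%), 5 higher and 1 lower at 18°C. Of all rows 10.8% were called, 6.68% higher and 4.16% lower. The median change was 0.11, against -0.02 over all rows, and 50 of 73 rows were higher at 18°C (68.5%, against 48.6% of all rows). *mRpL54* rose by 0.68 ± 0.16 (log2, SE, limma, adjusted p = 0.00481), with 123.8 to 218.6 at 18°C and 79.7 to 112.6 at 25°C, which do not overlap. *mRpL28* rose by 0.41 ± 0.11 (adjusted p = 0.0116), with 338.4 to 440.3 at 18°C and 272.7 to 340.9 at 25°C. *mRpL4* was the only row called lower (-0.49 ± 0.15 SE, limma, adjusted p = 0.0280). Its 6 libraries at 18°C, from 101.7 to 125.8, all lay under those at 25°C, from 128.2 to 233.0.

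The other rows called higher at 18°C were *mRpL19*, *mRpS30* and *mRpS24*, a small-subunit protein, with log2 changes of 0.68, 0.69 and 0.51 and overlapping groups. Each moved in its direction at 5 of the 6 time points. Only *mRpL54* kept its call under all 17 alternatives. The call of *mRpL28* ended without ZT19 (limma, adjusted p = 0.0726). Those of *mRpL4* and *mRpL19* ended without any of ZT7, ZT15 and ZT19, and also without ZT23 for *mRpL4* and ZT3 for *mRpL19*, with adjusted p of up to 0.123 and 0.0711. *mRpS30* lost its call without ZT7, ZT11, ZT19 or ZT23 and *mRpS24* without any time point but ZT11, with adjusted p of up to 0.171 and 0.187, and *mRpS24* kept its call in 6 of the 17 alternatives. With libraries scaled to the same total, 1 row was called higher and 3 lower at 18°C. Of all 8846 tested rows, 308 were then called higher and 890 lower. The median of the 73 rows was -0.06 under that scaling, against -0.18 over all rows. With totals that left out the yolk protein genes, 3 rows were called higher and 1 lower, and with median ratios 5 higher and 1 lower. Of all rows, 485 were called higher and 558 lower with those totals, and 570 and 398 with median ratios.

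Warmth against 25°C gave no call among the 73 rows, where 2.06% of all rows were called. At an unadjusted limma p under 0.05, 5 rows were higher and 2 lower (9.59%, against 13.9% of all rows). *mRpS21* came closest, with 186.7 to 294.5 at 29°C and 125.0 to 199.9 at 25°C (limma log2 change 0.53 ± 0.17 SE, adjusted p = 0.0998), and it was called when limma weighted the libraries by quality. *mRpL33* followed, with a log2 change of 0.40 ± 0.13 (limma, adjusted p = 0.120). The median change was 0.12, against 0.02 over all rows, and 51 of 73 rows were higher at 29°C (69.9%, against 52.8% of all rows). Both contrasts with 25°C share the same 6 libraries at 25°C. In 31 of the 73 rows the mean at 25°C was the lowest of the 3 temperatures and in 3 rows the highest, against 24.4% and 24.3% of all rows.

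**Figure D2:**
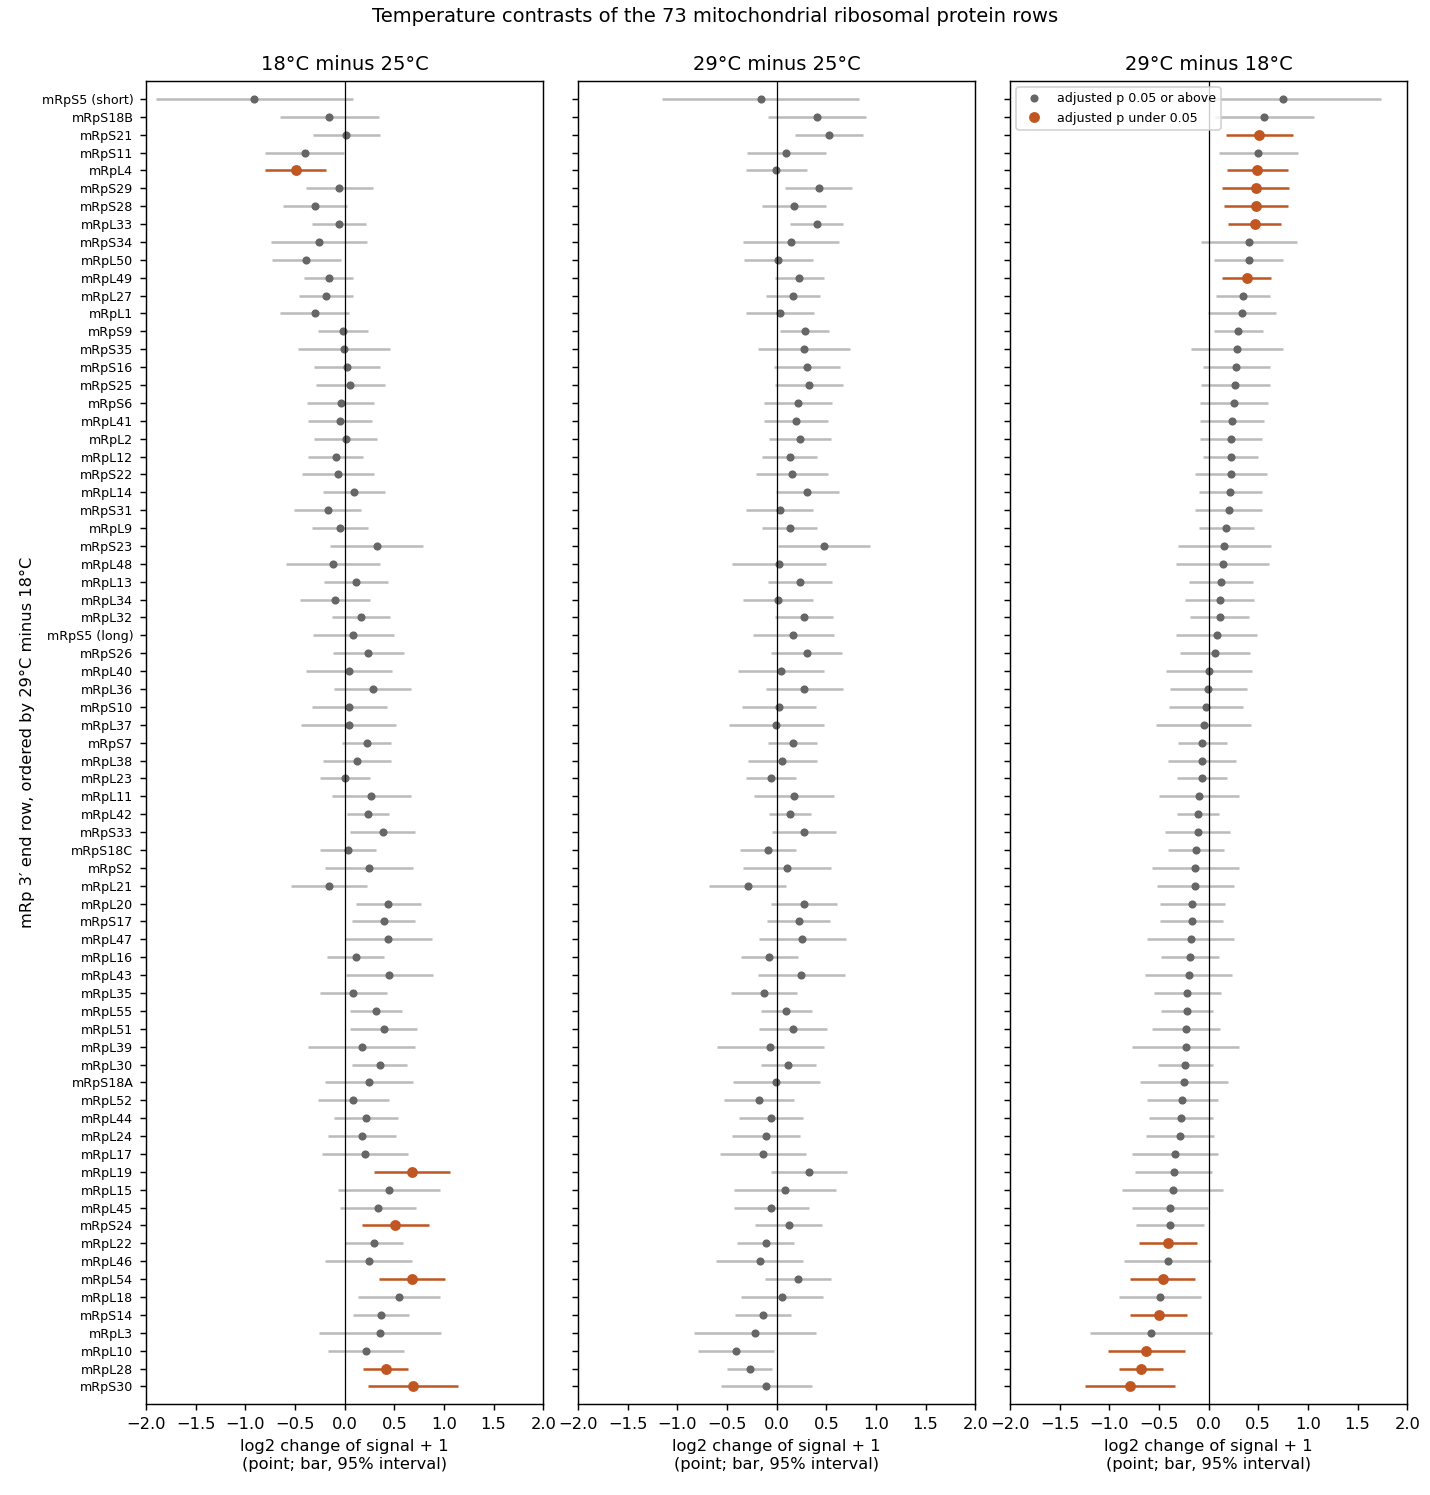
Log2 change of signal + 1 (point) with its 95% limma interval (bar) for all 73 rows in the 3 temperature contrasts, ordered by the change between 29°C and 18°C. Filled orange marks an adjusted p under 0.05, with 6 rows in the left panel, 0 in the middle and 12 on the right. *mRpS5 (short)* is the minor 3′ end of *mRpS5*.

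The rows were also split by subunit. Between 29°C and 18°C the median change was -0.17 over the 48 large-subunit rows, of which 3 were called higher and 5 lower, and 0.22 over the 25 small-subunit rows, of which 3 were called higher and 1 lower. Of all rows, 10.5% were called higher and 12.6% lower. Relative to 25°C, large-subunit rows had medians of 0.17 in the cold and 0.05 in the warmth, and small-subunit rows 0.02 in the cold and 0.17 in the warmth. With libraries scaled to the same total, the medians between 29°C and 18°C were 0.02 for the large and 0.41 for the small subunit, so the order was kept while the sign for the large subunit turned. The split by origin showed less, with medians of -0.07 over 45 rows with a bacterial counterpart and -0.02 over 28 rows without. These are descriptions of the rows, which are not replicates, and the differences were not tested.

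The lists of genes that work with the mitochondrial ribosome held 0 to 2 calls each between 29°C and 18°C, where 23.1% of all rows were called, and differences between lists were not tested. The pair of mitochondrial ribosomal protein genes with other symbols, *tko* and *bonsai*, gave no call in any contrast. Of 18 mitochondrial translation factors and transcript maintenance genes, 1 was called between 29°C and 18°C, *CG13163* (*mIF3*), an initiation factor, with a log2 change of -0.93. Of 17 genes for charging mitochondrial tRNAs, 1 was called, *CG33649* (*GatC*), a subunit of the glutamine amidotransferase, with a log2 change of 0.82. Of 7 mitochondrial chaperones and proteases, the protease gene *Lon* and the chaperonin gene *Hsp60* were called higher at 29°C, by 0.72 and 0.47. *Ets97D*, the fly homologue of the GA-binding protein alpha chain, was called higher by 1.33 among 5 transcription factors.

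The oxidative phosphorylation and cytosolic ribosomal protein lists gave calls mostly in a single direction. Of 69 rows for nuclear-encoded oxidative phosphorylation subunits, 56 were called lower and 1 (*l(3)neo18*) higher at 29°C than at 18°C, with a median of -0.38. *CG34172*, *ATPsyn-gamma*, *ATPsyn-beta*, *blw* and *CG4692* led, with log2 changes of -1.06 to -0.71. Of 86 cytosolic ribosomal protein rows, 76 were called higher and 0 lower, with a median of 0.44, led by *RpL24-like*, *RpS20*, *sta*, *RpS14b* and *RpL36* with 0.76 to 1.43. With libraries scaled to the same total, these medians were -0.19 and 0.63. The 4 muscle markers above fell along with the oxidative phosphorylation rows (median -0.76), and their part in it was not tested. The 12 calls among 73 mitochondrial ribosomal protein rows were split evenly and their median lay between the medians of these lists. The lists differ in abundance, with a median row mean of 1789 for oxidative phosphorylation and 9680 for cytosolic ribosomal proteins against 135.9 here, so counting error is smaller in them. Between 18°C and 25°C, 29 oxidative phosphorylation rows were called higher and 0 lower, and 29 cytosolic ribosomal protein rows were called lower and 0 higher, while the translation factor, tRNA charging and chaperone lists held no call. Between 29°C and 25°C, 2 oxidative phosphorylation rows were called lower and 0 higher, and 7 cytosolic ribosomal protein rows higher and 0 lower. The mitochondrial co-chaperonin gene *CG11267* was called higher by 0.47, and the translation factor and tRNA charging lists again held no call.

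**Figure D3:**
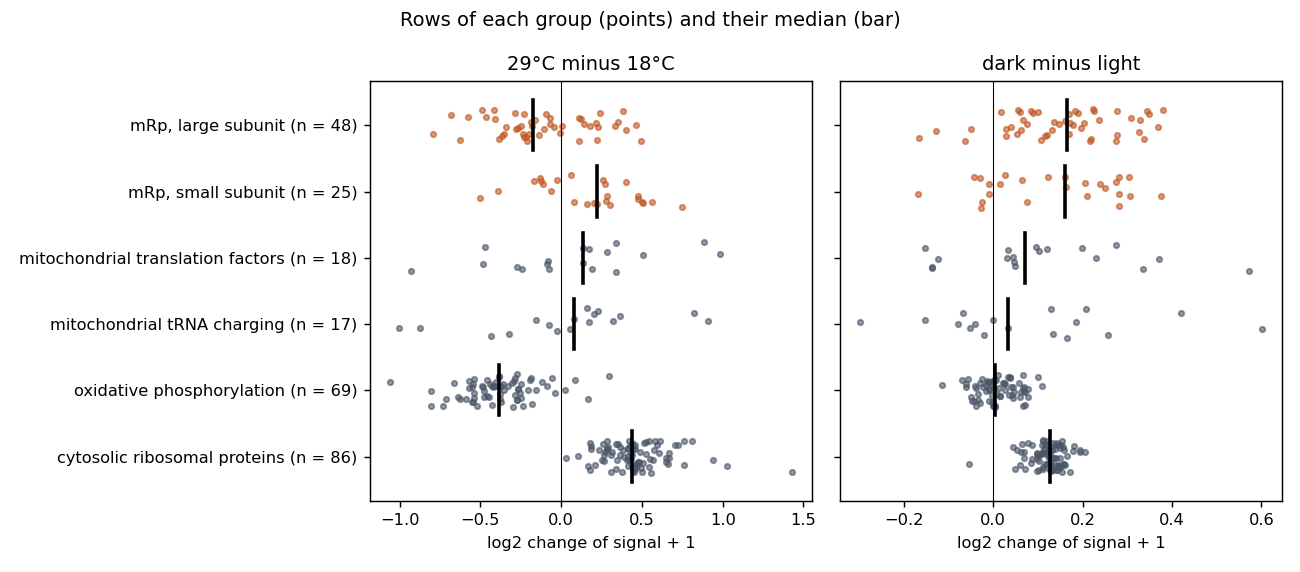
Log2 change of signal + 1 for each row (points, spread vertically for legibility) and the median of the group (bar), for 29°C minus 18°C on the left and dark minus light on the right. The mitochondrial ribosomal protein rows straddled 0 between temperatures, with medians of -0.17 for the large and 0.22 for the small subunit. In the dark their medians were 0.17 for the large and 0.16 for the small subunit.

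The members varied little in step. The median Pearson correlation between a pair of the 73 rows over the 18 libraries was 0.11, and 0.10 with temperature means removed. It was 0.93 among cytosolic ribosomal protein rows, 0.78 among oxidative phosphorylation rows, and 0.00 both over all tested rows and over the 3663 rows with a mean signal of 50 to 350. These values share libraries and rest on different depths. The spread of a row around its temperature means was 0.30 on the log2 scale (median of the SDs), against 0.33 for the rows with a mean of 50 to 350, and counting reads alone accounted for a median of 21.3% of its variance. The genes whose profiles were most like the median profile of the 73 rows over the 18 libraries were *Hsc20* (Pearson r = 0.83), *CG5390* (0.81), *CG6409* (0.76), *eIF-2beta* (0.76) and *CG10799* (0.73).

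A day and night difference was looked at after the library medians had been seen. In each library the offset of every row from its own mean was taken, and the median over the 73 rows ran from -0.03 to 0.21 on the log2 scale in the 9 libraries of the dark phase (ZT15, ZT19 and ZT23) and from -0.17 to 0.09 in the 9 of the light phase. At 25°C the 3 dark libraries (-0.03 to 0.05) all lay above the 3 light ones (-0.17 to -0.11), and the same held at 29°C (0.05 to 0.21 in the dark, -0.10 to 0.00 in the light). At 18°C, ZT7 in the light and ZT19 in the dark had the same median of 0.09. The median over all tested rows stayed between 0.00 and 0.06 in every library.

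Of the 73 rows, 62 were higher in the dark (84.9%, against 51.9% of all rows), with a median change of 0.16, against 0.01 over all rows. No row was called, where 0.102% of all rows were called, and the lowest adjusted limma p was 0.350. At an unadjusted p under 0.05, 10 rows were higher and 0 lower (13.7%, against 9.05% of all rows). *mRpL38*, a protein without a bacterial counterpart, had the lowest p, with a log2 change of 0.35 ± 0.12 (SE). *mRpS29* had 142.3 to 270.7 in the dark and 106.8 to 225.6 in the light, with medians of 174.5 and 148.6 and a log2 change of 0.31 ± 0.12. *mRpL45* had 88.3 to 241.9 in the dark and 87.5 to 148.9 in the light (log2 change 0.34 ± 0.14). The shift was not particular to these genes, since 85 of 86 cytosolic ribosomal protein rows were also higher in the dark, with a median of 0.13, while oxidative phosphorylation rows had a median of 0.00. With libraries scaled to the same total, 53 of the 73 rows were higher in the dark and the median was 0.10, against -0.05 over all rows. At an unadjusted limma p under 0.05, 4 rows were then higher and 0 lower, against 810 of all 8846 rows. Under the deposited scaling, 3 rows were higher at that p without ZT23 and 14 without ZT15. Of all rows, 689 of 8709 and 905 of 8696 passed it in those settings.

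**Figure D4:**
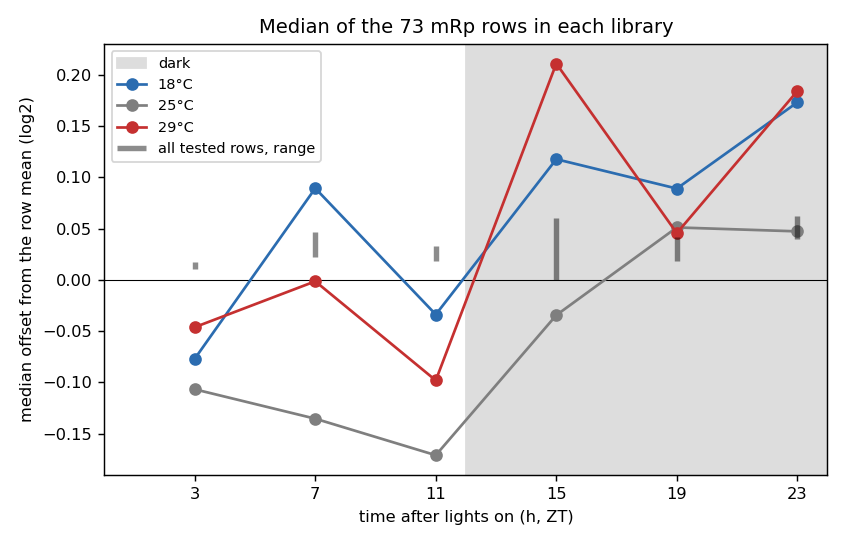
Median over the 73 rows of the offset from each row's mean (log2, vertical axis) against time after lights on (h), with 1 point per library and a line per temperature. Grey shading marks the dark phase and thick grey bars the range over the 3 temperatures of the same median for all tested rows. Dark libraries reached 0.21 and light libraries went down to -0.17.

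As a 24 h cosine, the pattern gave no call. A rhythm common to the 3 temperatures was called in 0 of 73 rows, where 0.497% of all rows were called, and 3 rows had an unadjusted limma p under 0.05 (4.11%, against 8.66% of all rows). They were *mRpS10*, with a peak-to-trough change of 0.59 on the log2 scale (limma, adjusted p = 0.387), *mRpL45* with 0.55 (0.483) and *mRpL51* with 0.46 (0.569). Taken alone, each of the 3 temperatures gave 0 called rows, where 0.136% of all rows were called in the cold, 0.170% at 25°C and 0.102% in the warmth, with 4, 5 and 3 members at an unadjusted p under 0.05 (5.48%, 6.85% and 4.11%, against 7.56%, 8.20% and 4.78% of all rows). An exact rank test of JTK type at each temperature found 0, 1 and 0 rows at a p under 0.05 (0%, 1.37% and 0%, against 1.67%, 2.25% and 2.17% of all rows). With 6 values it cannot go below 0.0167, which cannot pass an adjustment over all rows.

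The genes are short and often lie close to another gene's start. In dm3, transcripts spanned under 2000 bases in 71 of 73 rows, against 35.3% of all rows with a position, with a median of 854 bases. The genes lay on all major arms, 12 on 2L, 11 on 2R, 17 on 3L, 21 on 3R and 11 on X. In 47 of 72 genes (65.3%), a gene on the other strand started within 500 bases upstream of the transcript start, pointing away, against 30.6% of 8108 tested genes with a position. Examples were *mRpL55* with *ATPsyn-d* at 95 bases, *mRpL39* with the proteasome gene *Prosbeta2* at 285 bases and *mRpL33* with the phospholipase gene *norpA* at 395 bases. None of these partners was another member. In 37 of 73 rows the last 300 bases overlapped a gene on the other strand, against 26.8% of the 8108 genes. Among them were *mRpL28* (*Gmd*) and *mRpL4* (*CG4278*). In 1 row, *mRpS14* (*CG32533*), they overlapped a gene on the same strand, against 3.98% of the 8108 genes. Whether reads were assigned by strand is not given in the sources used here, so in these rows the reads of the partners could be mixed.

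Only *mRpS5*, a small-subunit protein related to the bacterial protein at the message entry channel, kept 2 distinguishable 3′ ends. Its long transcript (3L, 24530335 to 24536634) had a mean of 138.9, and its short one (24530462 to 24531234) a mean of 14.9. The short transcript took 8.30% ± 7.79 of the gene's signal at 18°C, 12.3% ± 5.0 at 25°C and 9.56% ± 2.27 at 29°C (SD, n = 6 each). The share differed by -4.03 percentage points between 18°C and 25°C, by -2.78 between 29°C and 25°C and by 1.26 between 29°C and 18°C. None was beyond the spread (exact permutation tests over 924 arrangements, two-sided, p = 0.307, 0.238 and 0.749, adjusted over 3 tests 0.461, 0.461 and 0.749). The short end rested on 1 to 32 reads per library.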

How the data were processed

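The table holds 1 column for each of 18 libraries. For its circadian analysis the study describes more than 1 replicate per temperature and time point, and only the columns of this table were used here. The authors deposited scaled signal, reads divided by a constant per library. How the constants were obtained is not given in the sources used here. The submitters' processing notes name Bowtie2, TopHat, Cufflinks and the build dm3, without roles. Only 96.8% to 97.9% of a library's nonzero values were whole multiples of the value of 1 read, so count models were not used. Starts in the table count from 0 (on 2L, 2866 of 2953 rows matched the later annotation after adding 1, and 7 as given). Positions here count from 1.

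Of 29561 rows, 16490 remained after repeated and near-identical rows of a gene were merged. Rows with at least 10 in at least 6 libraries were tested (8846 rows of 8200 genes) on log2(signal + 1), a scale that understates changes of low rows. The fits used limma 3.58.1 in R 4.3.3 (3 temperature means, empirical Bayes with trend, Benjamini-Hochberg over all tested rows). They were tested on reads simulated with known library constants, which does not test the scaling of the deposited values. Rhythms used a 24 h cosine and sine, with the fifth time point at 19 h (18 h in the titles). List symbols were matched through RefSeq. Nothing says that time points came from separate cultures, so p-values measure the spread between these libraries, which may be technical.

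The members and lists were chosen with earlier results of these data known. Values are given for called rows moving alike at all 6 time points (at most 8 per contrast), the 3 lowest rhythm p, the 2 highest and 2 lowest means, members of known role, genes with 2 ends, and up to 5 called genes per list. *mRpL19*, *mRpL22*, *mRpL38*, *mRpL49*, *mRpS14*, *mRpS21*, *mRpS24* and *mRpS28* were added after their values were seen. Alternatives were other pseudocounts, scalings, filters, repeats, weights, a time-point block and leaving out time points or the shallow library.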

Additional observations from a re-analysis of the deposited data

Results flagged for a closer look

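Among 90 groups of 6 libraries checked, 6 had a library far from the others, where chance flags about 1 in 20. *mRpS24* at 25°C had 142.3 at ZT11, against 77.3 to 85.8 in the others. *mRpL12* at 25°C had 188.7 at ZT11, against 266.1 to 302.6. *mRpL51* at 18°C had 262.5 at ZT23, against 144.3 to 172.4. The long transcript of *mRpS5* at 18°C had 63.7 at ZT23, against 142.1 to 169.6, and the share of its short transcript there was 23.2%, against 0.587% to 8.04%. The short transcript of *mRpS5* at 29°C had 6.65 at ZT19, against 16.4 to 18.98.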

How the results depend on the processing

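Each of the 18 calls kept its direction under all 17 alternatives. The 6 calls between 18°C and 25°C numbered 1 to 5 when a time point was left out (1 without ZT19, 2 without ZT7, 3 without ZT15 or ZT23), and the 12 between 29°C and 18°C numbered 5 to 11 (5 without ZT19, 7 without ZT7). Scaling to the same total gave 19 calls between 29°C and 18°C, with a median of 0.1273, and a median of -0.0605 between 18°C and 25°C. Over all rows, 1651 were then called higher and 739 lower between 29°C and 18°C. Array weights gave 1 call between 29°C and 25°C. The median of the 73 rows relative to all rows stayed positive for both contrasts with 25°C (0.09 to 0.17 in the cold, 0.05 to 0.12 in the warmth) and negative between the extremes (-0.17 to -0.06). Without the shallow library of 25°C at ZT15, 5 rows were called between 18°C and 25°C, 0 between 29°C and 25°C and 14 between 29°C and 18°C. Those 5 rows were all higher at 18°C, and *mRpL4* and *mRpS24* lost their calls between 18°C and 25°C. Rhythm and dark-phase counts stayed at 0 in the alternatives run, as did the 3′ end tests with rows not merged (6 genes). Among the rhythm alternatives the rank test called no row of any gene, so its 0 adds nothing. Over all tested rows, libraries of a time point deviated together only weakly (correlations of -0.05 to 0.11 over 18 pairs, 6 of them highest with their own time). The block on time point gave 5, 0 and 12 calls in the same order, without *mRpS24* in the first (limma, adjusted p = 0.0564). Single temperature changes had a median interval half-width of 0.34 on the log2 scale (limma). Counting reads alone accounted for a median of 21.3% of a row's variance around its temperature means, so depth sets only part of this width.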
